A study of Mus musculus with 6 samples.

Results

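The IL-17 receptor subunit genes Il17ra, Il17rb, Il17rc, Il17rd and Il17re, the adaptor genes Traf3ip2 and Traf6 and the regulator genes Nfkbiz, Zc3h12a and Tnfaip3 were followed in brown adipose tissue, a fat depot specialised in producing heat. They were chosen by symbol. All 10 were found among the 24016 gene symbols used. The 6 polyA RNA sequencing libraries came from C57BL6 mice, 3 of genotype WT and 3 of genotype AdIl17rc KO; by the series title the deletion concerns IL-17RC in adipocytes. Values are FPKM, fragments scaled by transcript length and by the mapped total of the library, so levels of different genes can be set side by side per length. The promoter that drives the deletion, the deleted exons, the sex and age of the mice, and whether a library holds 1 animal or a pool of animals were not stated in the labels. The p-values therefore measure the spread between these libraries, which may be technical. Values of a group are listed in the order of its replicate numbers 1, 2 and 3.

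Interleukin-17A and interleukin-17F act on a receptor built from IL-17RA and IL-17RC. IL-17RA is shared within the family, pairing with IL-17RB for interleukin-25 and with IL-17RE for interleukin-17C. The occupied receptor recruits ACT1, the product of Traf3ip2, which brings in the ubiquitin ligase TRAF6 and leads to NF-kB and C/EBP activity and to longer-lived inflammatory mRNAs. The same signal induces its own modifiers, among them I-kappa-B-zeta (Nfkbiz), the RNase Regnase-1 (Zc3h12a) and the ubiquitin-editing protein A20 (Tnfaip3). In fat, gamma-delta T cells are a known source of IL-17A.

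The value that 1 fragment takes among low genes put the depth of the libraries at about 31.2 to 38.5 megafragments. At that depth and with the longest annotated transcript, Il17rc corresponds to about 169 to 244 fragments in the wild-type libraries and 44 to 95 in the knockout libraries. Il17rb corresponds to only 6 to 24 fragments in any library. All 6 brown and general adipocyte markers checked were present in every library, with Ucp1 at 1976 to 2979 FPKM. Values across the table stood higher in wild-type library 1 than in the others: the median-of-ratios scaling factor was 1.33 there, 1.02 and 1.05 in the other wild-type libraries, and 0.836 to 1.003 in knockout. For 7 of the 10 members wild-type library 1 was the highest wild-type library. The median tested gene had a log2 fold change, knockout minus wild type, of -0.29, so fold changes are given as deposited and again after median-of-ratios scaling ("scaled"), where that median was -0.0017. Skeletal muscle markers summed to 202 and 361 FPKM in knockout libraries 1 and 2, against 1.56 in knockout library 3 and 2.37 to 29.0 in wild type, and their part in the results was not tested.

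Among the receptor subunits, the wild-type libraries ranked the genes in the same order, each subunit lying above the next without overlap of their 3 values. Il17ra was highest, with wild-type values of 6.26, 4.10 and 3.53 FPKM. Il17rc followed at 3.21, 2.28 and 2.02 FPKM. Il17re, known mainly from epithelial cells, came next at 1.14, 1.05 and 0.867 FPKM. Il17rd, whose product is also called SEF and was described as an inhibitor of growth factor signalling, lay at 0.286 to 0.345 FPKM, and Il17rb at 0.147 to 0.258 FPKM. Both receptor partners of interleukin-17A were thus the 2 highest subunits of the wild-type tissue. The epithelial markers checked were at or near 0: Krt5 was listed at 0 in every library, and the 4 markers together reached 0.107 FPKM at most. In knockout the order changed at Il17rc only, whose values overlapped those of Il17re; Il17ra stayed highest, and Il17rd and Il17rb stayed lowest.

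**Figure D1:**
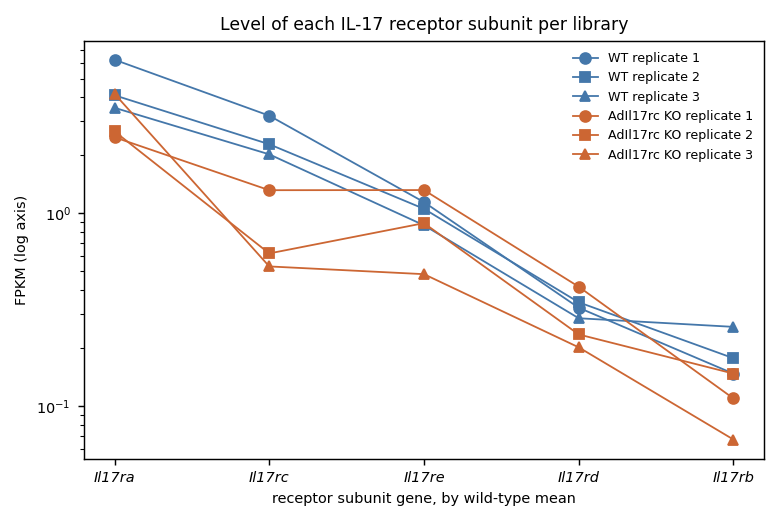
Level of each receptor subunit gene (FPKM, log axis) in every library, with genes ordered by their wild-type mean and 1 line per library (blue, WT; orange, AdIl17rc KO). The blue lines step down without crossing between Il17ra, Il17rc and Il17re, whereas the orange lines drop at Il17rc to 0.530 to 1.32 FPKM, level with Il17re at 0.483 to 1.32 FPKM.

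Il17rc, the gene the knockout is named for, had knockout values of 1.32, 0.619 and 0.530 FPKM. Every knockout library lay below every wild-type library, and knockout library 1 kept more than the other knockout libraries. The knockout mean was 32.8% of the wild-type mean (0.822 ± 0.431 against 2.51 ± 0.624 FPKM, SD, n = 3 each). The log2 fold change was -1.21 ± 0.25 (SE) as deposited and -0.98 ± 0.19 scaled, and it did not pass 0.05 over all tested genes (limma adjusted p = 0.151 and 0.226). Of the 10864 tested genes, 78 (0.718%) had a log2 fold change as low or lower as deposited, and 66 (0.608%) after scaling. By size of p Il17rc was number 51 as deposited and number 61 scaled. In bulk tissue fewer cells of a type and less RNA per cell cannot be told apart, and a value over the whole gene includes any exons that the deletion leaves, so what remains in knockout cannot be assigned to a cell type.

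The genes beside Il17rc on chromosome 6 had smaller log2 fold changes. Il17re precedes it, apart from a predicted lncRNA gene that was not analysed here, and Creld1 and Prrt3 follow. Creld1, which encodes a membrane protein with EGF-like domains, had 19.2, 12.1 and 13.1 FPKM in wild type against 12.5, 8.88 and 7.08 FPKM in knockout. Its groups overlapped, with a difference on the log2 scale of -0.62 ± 0.25 (SE) as deposited and -0.30 ± 0.15 scaled (limma adjusted p = 0.176 and 0.339). The ratio of Il17rc to Creld1, which needs no scaling between libraries and was added after the values were seen, was 0.154 to 0.189 in wild type and 0.0697 to 0.105 in knockout, a log2 difference of -1.05 ± 0.20 (SE) at the smallest p possible here (exact two-sided permutation p = 0.1). Prrt3 did not exceed 0.0312 FPKM in any library and was not compared. The bases before the annotated starts of Il17re and Il17rc are shown because these adjacent genes differ in wild-type level and in log2 fold change. Their knockout values overlap. RefSeq, on build GRCm38.p6, gave such a sequence for 7 of the 10 members; the deposited data were mapped to another build, mm9. In each stretch of 250 bases, which ends at the last base before the start, capitals mark 2 motifs searched on both strands: GGNNTTTCC, a form of the NF-kB site, and GGGCGG, the GC box. Of 32851 stretches of that length 4.93% hold the first and 32.7% the second.

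Il17re, GRCm38.p6 chr6:113458521-113458770, plus strand: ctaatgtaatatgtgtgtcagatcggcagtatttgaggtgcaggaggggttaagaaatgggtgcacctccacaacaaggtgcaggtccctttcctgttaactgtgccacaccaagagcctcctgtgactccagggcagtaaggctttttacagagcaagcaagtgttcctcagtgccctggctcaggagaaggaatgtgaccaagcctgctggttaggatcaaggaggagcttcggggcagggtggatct

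Il17rc, GRCm38.p6 chr6:113471205-113471454, plus strand: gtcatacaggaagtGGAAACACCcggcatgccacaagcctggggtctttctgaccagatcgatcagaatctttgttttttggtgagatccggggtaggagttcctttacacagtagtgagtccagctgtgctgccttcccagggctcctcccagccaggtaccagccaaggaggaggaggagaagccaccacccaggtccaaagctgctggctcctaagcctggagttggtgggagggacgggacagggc

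Neither stretch holds a GC box, and that of Il17rc holds a single match to GGNNTTTCC, which begins 236 bases before the start. A match is a description of the letters and no evidence of binding.

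Il17ra, the subunit that pairs with IL-17RC, overlapped between the groups. Its knockout values were 2.48, 2.66 and 4.17 FPKM, so that knockout library 3 exceeded wild-type libraries 2 and 3. The log2 fold change was -0.50 ± 0.25 (SE) as deposited and -0.21 ± 0.23 scaled, with limma adjusted p = 0.218 and 0.648, and its sign turned (0.0063) once GC content and transcript length were also corrected. Without wild-type library 1 it was -0.29 as deposited, and scaled it ran from -0.45 without knockout library 3 to -0.0094 without knockout library 1. Within libraries the ratio of Il17rc to Il17ra was tight in wild type, 0.513, 0.557 and 0.574. In knockout it spread out, to 0.531, 0.233 and 0.127. Knockout library 1 therefore lay inside the wild-type range: Il17ra was at its lowest in the same library where Il17rc was highest among the knockouts. The difference of the log2 ratio was -1.13 ± 0.60 (SE; exact two-sided permutation p = 0.2, 0.25 adjusted over the 5 ratios compared).

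Of the other 4 ratios, 3 separated the groups. Il17rc stood above its neighbour Il17re by a factor of 2.16 to 2.81 in wild type, and the knockout ratios were 0.998, 0.697 and 1.097. Relative to Il17rd the ratio was 6.60 to 9.92 in wild type and 2.63 to 3.17 in knockout. Relative to Traf6 it was 0.574 to 0.736 and 0.206 to 0.471. In these 3 ratios the groups did not overlap, with log2 differences of -1.41 ± 0.23, -1.47 ± 0.20 and -1.20 ± 0.41 (SE), each at the smallest p that 3 against 3 libraries allow (exact two-sided permutation p = 0.1, adjusted 0.167). The ratio of Il17rc to Traf3ip2 overlapped: it was 1.49 to 2.40 in wild type and 3.27, 1.12 and 0.737 in knockout, a log2 difference of -0.42 ± 0.67 (SE; exact permutation p = 0.6). Without knockout library 3 that difference was 0.0356, with the sign turned.

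**Figure D2:**
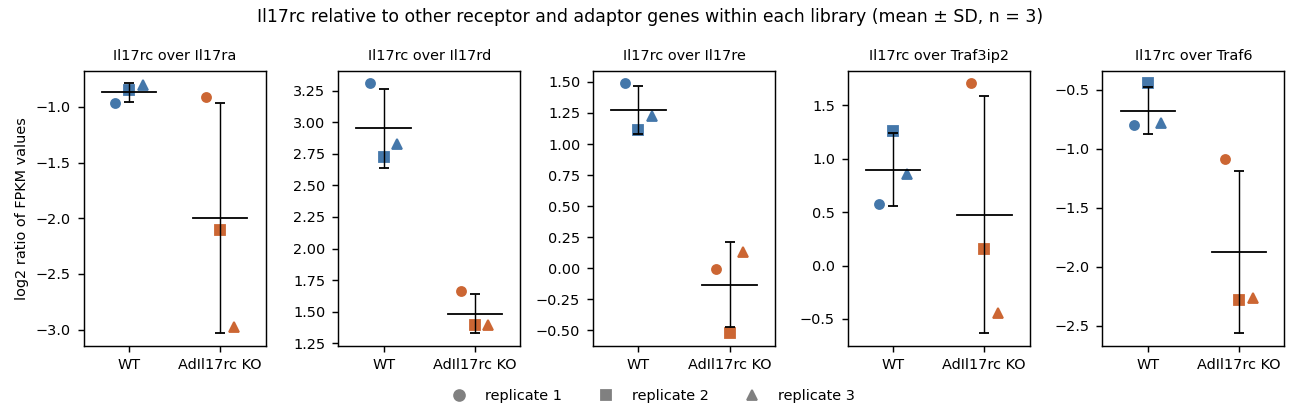
Log2 ratio of Il17rc to each other receptor or adaptor gene above 0.1 FPKM in every library, by group (points, libraries, with the symbol giving the replicate number; bar, mean ± SD, n = 3). The groups are apart for Il17rd, Il17re and Traf6, and knockout replicate 1 sits with or above wild type for Il17ra and Traf3ip2.

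For the remaining subunits the values of the groups overlapped. Il17re had knockout values of 1.32, 0.889 and 0.483 FPKM, on both sides of the wild-type values, and differed on the log2 scale by -0.16 ± 0.23 (SE) as deposited and 0.04 ± 0.20 scaled (limma adjusted p = 0.623 and 0.925). Il17rd and Il17rb lay below a mean of 0.5 FPKM in both groups and were not in the test over all genes. Knockout values of Il17rd were 0.416, 0.235 and 0.202 FPKM, and its groups overlapped (exact permutation p = 0.7). The mean of Il17rb was 0.194 ± 0.057 FPKM in wild type against 0.108 ± 0.040 in knockout (SD, n = 3; exact permutation p = 0.2). It shares 141 exonic bases with Actr8 on the opposite strand, a gene more abundant by far at 5.41 to 8.33 FPKM (group means). The strand setting of the counting was not stated, so the origin of the few Il17rb fragments is uncertain.

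**Figure D3:**
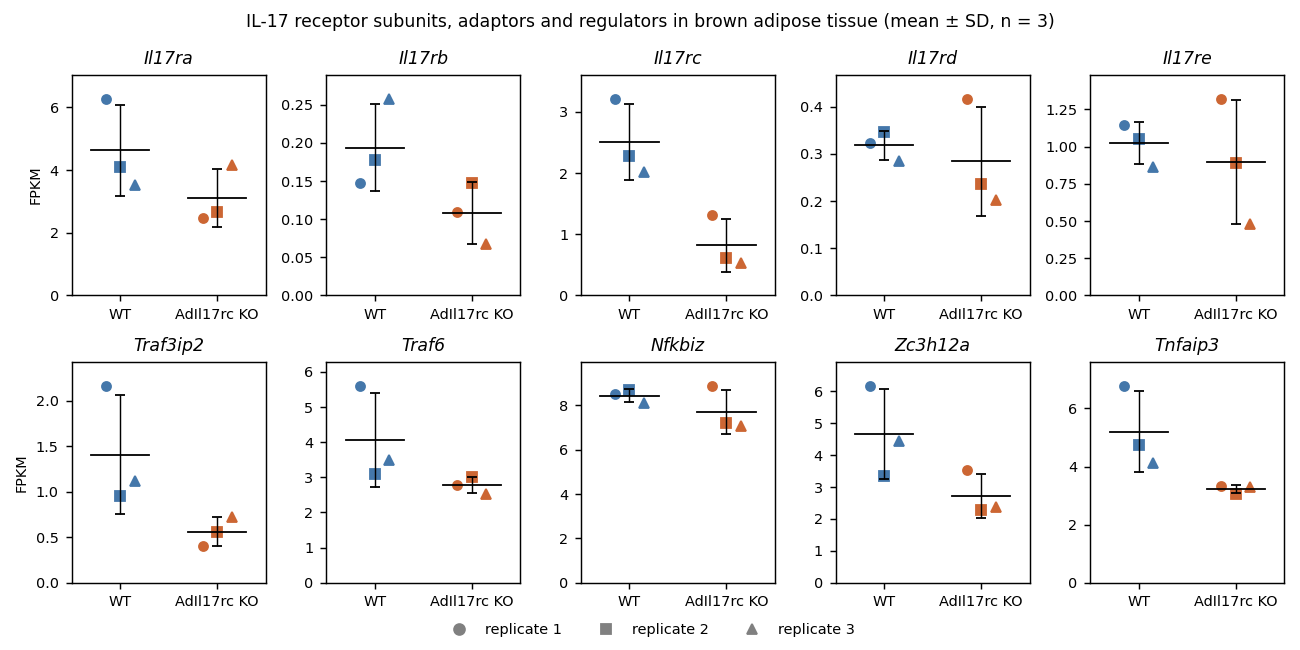
FPKM of each of the 10 genes by group (points, libraries, with the symbol giving the replicate number; bar, mean ± SD, n = 3; each panel has its own axis from 0). Il17rc, Traf3ip2, Traf6 and Tnfaip3 have all 3 knockout libraries below all 3 wild-type libraries, and the other 6 genes overlap.

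Of the adaptors, Traf3ip2 showed the second-lowest fold change among the members tested. Its values were 2.16, 0.952 and 1.12 FPKM in wild type against 0.403, 0.555 and 0.720 FPKM in knockout. The groups did not overlap, as deposited or scaled, and wild-type library 1 stood well above the others. The knockout mean was 39.7% of the wild-type mean. The log2 fold change was -0.81 ± 0.25 (SE) as deposited and -0.58 ± 0.21 scaled (limma adjusted p = 0.159 and 0.254), with 2.15% of all tested genes as low or lower after scaling. Where Il17rc was highest among the knockout libraries, in library 1, Traf3ip2 was lowest. An antisense gene, E130307A14Rik, shares 293 exonic bases with Traf3ip2. Its means were 0.519 ± 0.152 and 0.450 ± 0.129 FPKM (SD, n = 3), so fragments from the shared bases cannot be assigned without strand. Traf6 had 5.59, 3.10 and 3.48 FPKM in wild type against 2.80, 3.01 and 2.54 FPKM in knockout. These values did not overlap as deposited but did after scaling, where the log2 fold change went from -0.44 ± 0.21 (SE) to -0.14 ± 0.14 (limma adjusted p = 0.215 and 0.602). Without wild-type library 1 these values were -0.21 and -0.026.

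Among the regulators, the log2 fold change of Nfkbiz was smaller in size than those of Tnfaip3 and Zc3h12a, as deposited and scaled. With GC and length correction the values were alike in size, at 0.255 for Nfkbiz, -0.229 for Tnfaip3 and -0.250 for Zc3h12a. Differences between these genes were not tested. Nfkbiz, whose product works with NF-kB on secondary response genes, was the highest of the 10 genes in both groups. Wild-type values were 8.52, 8.69 and 8.11 FPKM against 8.86, 7.19 and 7.09 FPKM in knockout. The log2 fold change was -0.13 ± 0.15 (SE) as deposited and turned to 0.18 ± 0.12 after scaling (limma adjusted p = 0.549 and 0.434). Tnfaip3 had 6.76, 4.74 and 4.11 FPKM in wild type against 3.33, 3.06 and 3.28 FPKM in knockout. Its knockout libraries lay close together and below all wild-type libraries as deposited, and met the lowest wild-type library after scaling (3.92 against 3.91). The log2 fold change was -0.59 ± 0.19 (SE) as deposited and -0.29 ± 0.12 scaled (limma adjusted p = 0.162 and 0.282). Zc3h12a had 6.16, 3.36 and 4.46 FPKM in wild type against 3.53, 2.29 and 2.36 FPKM in knockout. Its groups overlapped through knockout library 1 alone, and the log2 fold change was -0.66 ± 0.24 (SE) as deposited and -0.37 ± 0.15 scaled (limma adjusted p = 0.165 and 0.271). The stretches before the starts of Tnfaip3 and Zc3h12a, both induced through NF-kB, are shown with the same motifs in capitals. RefSeq gives Tnfaip3 a second start, whose stretch held neither motif and is not printed.

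Tnfaip3, GRCm38.p6 chr10:19015411-19015660, minus strand: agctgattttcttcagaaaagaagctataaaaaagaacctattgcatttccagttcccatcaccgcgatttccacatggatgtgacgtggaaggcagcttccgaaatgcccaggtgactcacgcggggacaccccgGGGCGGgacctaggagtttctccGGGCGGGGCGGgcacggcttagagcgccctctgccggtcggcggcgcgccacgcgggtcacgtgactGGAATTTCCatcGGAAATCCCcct

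Zc3h12a, GRCm38.p6 chr4:125127882-125128131, minus strand: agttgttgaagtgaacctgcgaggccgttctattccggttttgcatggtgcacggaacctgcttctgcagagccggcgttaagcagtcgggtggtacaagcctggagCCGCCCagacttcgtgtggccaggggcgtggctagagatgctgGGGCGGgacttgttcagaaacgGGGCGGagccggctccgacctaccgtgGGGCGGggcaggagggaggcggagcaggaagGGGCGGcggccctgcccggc

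Tnfaip3 holds a pair of NF-kB type matches, which begin 24 and 12 bases before the start, and 3 GC boxes. Zc3h12a holds 5 GC boxes and no match to GGNNTTTCC in these 250 bases. Of the members with a sequence, Il17rc and Tnfaip3 held a match to GGNNTTTCC.

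Counted together, 8 members had a mean of at least 0.5 FPKM and were tested, each of them above it in both groups. None was called at a limma adjusted p under 0.05, the rule by which 0.0184% of all tested genes were called in either direction. At an unadjusted limma p under 0.05, 4 of the 8 were lower (Il17rc, Traf3ip2, Zc3h12a and Tnfaip3), against a background of 24.8% lower genes as deposited. The same 4 genes had an unadjusted p under 0.05 after scaling, where the background was 8.61%, but only 2 of them, Il17rc and Traf3ip2, after the further GC and length correction (background 6.92%). With single libraries left out the scaled count ran from 1 to 4. It was 1, Il17rc, without wild-type library 1 or without knockout library 2, and 2, Il17rc and Zc3h12a, without knockout library 1. Groups did not overlap, with knockout lower, for 4 of the 8 as deposited (background 31.7%) and for 2, Il17rc and Traf3ip2, after scaling (background 12.5%). As deposited all 8 fold changes were below 0 on the log2 scale, as were those of 9516 of the 10864 tested genes. After scaling 6 of the 8 and 5471 of all tested genes were below 0. The members' median was -0.55 as deposited and -0.25 scaled, against -0.29 and -0.0017 for all tested genes. With limma sample quality weights, which gave most weight to wild-type library 3 (4.94) and knockout library 2 (6.82) and 0.192 to 0.859 to each of the rest, 5 members passed, along with 6382 genes of the whole table.

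**Figure D4:**
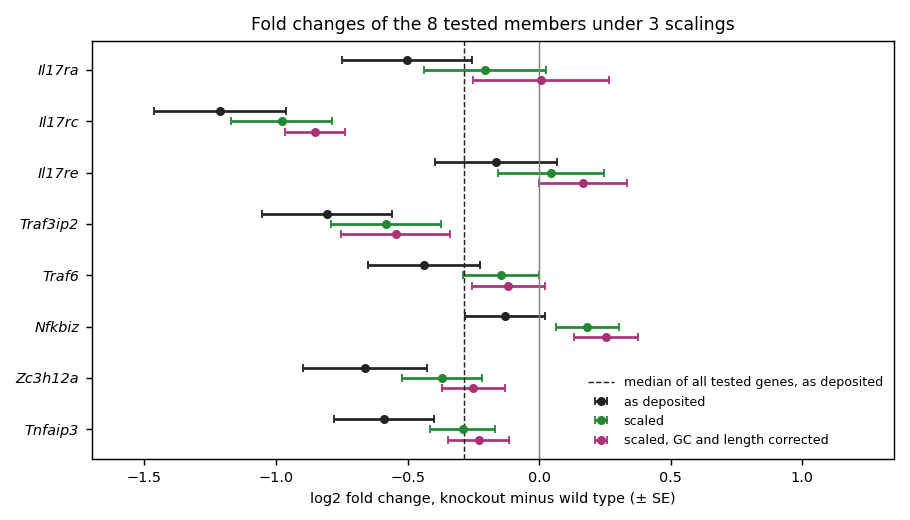
Log2 fold change (knockout minus wild type, ± SE from limma, n = 3 per group) of the 8 tested members as deposited, scaled, and scaled with GC and length correction; the dashed line is the median of all tested genes as deposited (-0.29). Il17rc and Traf3ip2 stay lowest under all 3 scalings, and Nfkbiz, Il17re and Il17ra reach or cross 0.

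Other genes of the pathway were taken from lists by role. Ligand transcripts were hardly detected in these libraries: 3 of the 6 ligand genes, Il17a, Il17b and Il17f, were listed at 0 in every library, and none of the 6 reached the minimum for the test. Il17d had the highest level of them, at 0.139 to 0.242 FPKM in wild type and 0.221 to 0.242 FPKM in knockout. T cell transcripts were low as well, with Cd3e at 0.123 to 0.778 FPKM over the 6 libraries.

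Of the 43 tested genes in the other lists 0 were called (limma adjusted p under 0.05), and an unadjusted limma p under 0.05 was found for 11 lower and 0 higher genes as deposited (background 24.8% and 1.01%), and for 5 lower and 1 higher after scaling (8.61% and 9.05%). With GC and length correction 3 were lower (6.92%). As deposited their median stood at -0.24 on the log2 scale, and scaled at 0.035, near that of all genes. The NF-kB, I-kB and C/EBP list had the lowest median of the lists, -0.57 as deposited and -0.24 scaled over 11 genes, of which 4 had an unadjusted p under 0.05 after scaling. With GC and length correction its median was -0.16. In that fit 3 of its genes were lower at an unadjusted limma p under 0.05, and 4 of the 11 were above 0. Relb, a subunit of the non-canonical NF-kB dimer, had 9.69, 6.29 and 5.71 FPKM in wild type against 4.83, 3.52 and 3.17 FPKM in knockout (scaled log2 fold change -0.51 ± 0.14 SE, limma adjusted p = 0.234). Nfkb1, which encodes p105 and p50, was at 9.79 ± 1.11 and 6.31 ± 0.43 FPKM, and Rel at 1.74 ± 0.18 and 0.992 ± 0.038 FPKM (SD, n = 3). These 3 genes, named for their small p, did not overlap between groups; over the whole list that held for 5 of 11 genes as deposited and 4 of 11 scaled, against 31.7% and 12.5% of all tested genes.

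The other lists were nearer to the whole table. TRAF, TAK1 and IKK genes had a scaled median of 0.035 over 13 genes, with 0 past an unadjusted limma p of 0.05 after scaling. Traf3, a relative of Traf6 that restrains IL-17 signalling, had means of 1.48 ± 0.28 FPKM in wild type against 1.02 ± 0.06 in knockout, and Traf4 of 3.95 ± 0.89 and 2.66 ± 0.88 (SD, n = 3). Tab2, an adaptor of the kinase TAK1, was at 20.02 ± 2.76 and 14.9 ± 1.4 FPKM. Their scaled log2 fold changes were -0.14, -0.23 and -0.08. Among deubiquitinases, ubiquitin ligases and A20 partners (10 genes, scaled median 0.13), Tnip1, whose product binds A20, was at 10.2 ± 3.0 and 5.59 ± 0.58 FPKM (SD, n = 3), with a scaled log2 difference of -0.47 ± 0.16 (SE; limma adjusted p = 0.246). Its relative Tnip2 and the ligase subunit Btrc had scaled values of -0.17 and -0.11. RNA-binding regulators (9 tested genes, scaled median 0.15) held both the lowest and the highest value: Zfp36l2, a decay factor of AU-rich mRNAs, at -0.57 ± 0.24 (SE), and Srsf1, a splicing factor that can bind inflammatory mRNAs, at 0.49 ± 0.17, both scaled (limma adjusted p = 0.283 and 0.254). The RNA-binding ligase gene Rc3h1, known as Roquin, was at -0.06.

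**Figure D5:**
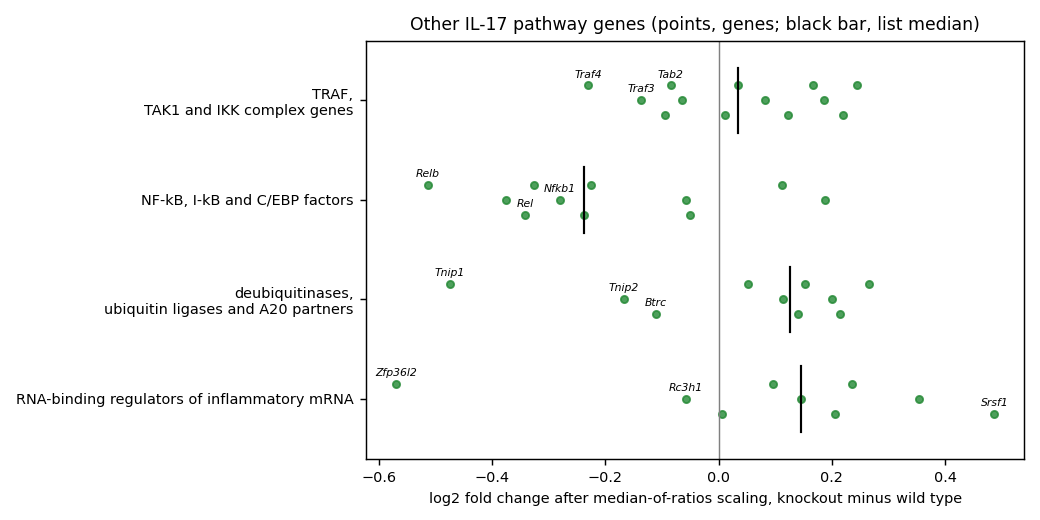
Scaled log2 fold change (knockout minus wild type) of each tested gene in 4 lists of other IL-17 pathway genes, with the list median as a black bar and the 3 genes of smallest p per list named. The NF-kB list lies mostly left of 0 (median -0.24), and the medians of the other lists lie between 0.035 and 0.15.

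Markers of other cells that can carry these transcripts lay apart between the groups in part, as did many genes of the whole table. Of all tested genes, 31.7% were lower in knockout without overlap as deposited and 12.5% scaled. Higher in knockout without overlap after scaling were 1403 of the 10864 tested genes. The endothelial sum (4 of 4 markers) was 107 to 185 FPKM in wild type and 68.9 to 96.0 in knockout as deposited. It stayed apart after scaling, at 105 to 139 and 81.2 to 95.7. Pecam1 and Cdh5, the most abundant, were lower in every knockout library on both scales, whereas Kdr and Tek overlapped on both. Of the 5 neutrophil markers listed, 4 were matched by symbol, with Mpo at or near 0. They summed to 56.0 to 77.5 FPKM in wild type and 14.0 to 54.0 in knockout as deposited. After scaling the sums overlapped, at 51.5 to 73.8 and 16.5 to 64.6. S100a8 overlapped on both scales, whereas S100a9 and Csf3r were lower in every knockout library on both. The fibroblast sum (4 of 4 markers) likewise did not overlap as deposited, at 56.6 to 83.0 and 45.5 to 53.7 FPKM. It overlapped after scaling, at 42.6 to 79.1 and 53.5 to 62.2. Dcn, the most abundant of these markers, overlapped on both scales, and Pdgfra after scaling only. Col1a1 and Col1a2 were lower in every knockout library on both. The sum of the adipocyte markers, most of it Fabp4, overlapped as deposited. After scaling that sum was higher in every knockout library, at 11900 to 12700 in wild type and 15500 to 17700 in knockout. Ucp1, Adipoq and Fabp4 were then higher in every knockout library, whereas Cidea, Prdm16 and Plin1 overlapped. As deposited, Cidea was lower in every knockout library. Macrophage markers (4 of the 5 listed) overlapped as deposited, at 28.0 to 74.9 and 38.6 to 44.6 FPKM, as did T cell markers (5 of the 6 listed) at 0.736 to 2.56 and 0.938 to 2.38 FPKM. Tnfaip3, Zc3h12a, Relb, Nfkb1 and Rel are expressed by many of these cells, and the part of cell composition in their values was not tested.

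Over the 6 libraries, the scaled profile most like that of Il17rc belonged to Trip10 (Pearson r = 0.996), Mtmr11 (0.995) and Parp1 (0.992). Trip10, which encodes a membrane-shaping adaptor protein, had a mean of 18.6 FPKM in wild type and 11.04 in knockout. With 6 libraries in 2 groups such values are common: 399 genes had r above 0.9 with Il17rc. For Il17ra the most alike were Ralgds (0.995), Ccdc86 (0.992) and Ddx31 (0.992), each highest in knockout library 3, as Il17ra was after scaling. These coefficients describe the 6 libraries, which share their scaling.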

How the data were processed

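The deposited table gives FPKM values per gene and library, computed by the authors; STAR 2.5.1b, Cufflinks 2.2.1, DESeq2 1.10.1 and build mm9 are named in the submitters' processing notes, without roles. For the annotation, the strand setting and multiply mapped reads, no setting was stated. Of 24043 lines, 27 held symbols turned into dates and were left out. FPKM is not a count, so no count model was used.

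Values were tested as log2(FPKM + 0.5) over the 10864 genes with a mean of at least 0.5 FPKM, with limma 3.58.1 in R 4.3.3 (genotype only, empirical Bayes with a trend, two-sided, Benjamini-Hochberg over all tested genes, threshold 0.05). On this log2 scale the fold changes of low genes come out too small. The fit was also run after median-of-ratios scaling, and after a further correction for GC content and transcript length (natural splines with 4 degrees of freedom each; 99.4% of tested genes had values). It was checked on simulated libraries with independent noise around scaled means, and without the shifts between libraries seen here. Ratios of members within a library were compared by exact permutation over libraries. Alternatives were other scalings, pseudocounts of 1 and 0.1, other filters and variance models, a replicate block, and each library left out in turn. Fragment numbers are estimates from the single-fragment value and the longest GENCODE transcript, and cover counting only.

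The members and lists were chosen with earlier results of these data known. A further T cell marker is not reported here and was left out of that list and its sum. Named genes were all members, up to 3 genes of smallest p per list, the genes beside Il17rc, and the 3 genes most correlated with Il17rc and with Il17ra.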

Additional observations from a re-analysis of the deposited data

How the results depend on the processing

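None of the 8 tested members was called in the fit reported or in the others, except with rescaling to a common FPKM sum, which called 1 member lower (Il17rc, log2 fold change -1.23, limma adjusted p = 0.0044), and with sample quality weights, which called 5 lower (Il17rc at -1.19, adjusted p = 0.000935). In knockout library 2 the feature Mir6236, at 146487 FPKM, made up much of that sum; without small RNA features the adjusted p of Il17rc was 0.152. Over its 25 alternatives Il17rc ran from -1.57 to -0.85 with adjusted p from 0.000935 to 0.521, and without each library from -1.46 to -1.05 as deposited. Other pathway genes called lower were 19 with the weights and 0 to 1 when libraries were left out. Of all tested genes 1 was called higher and 1 lower. Higher calls were 52 with the common sum, 411 with weights and 1 to 50 without each library; lower calls were 211, 5971 and 0 to 11, 13 with robust empirical Bayes and 0 with no filter. With a replicate block, alone or with scaling or GC and length correction, lower calls were also 0, and Il17rc had adjusted p = 0.0519, 0.223 and 0.441. The labels state no pairing by replicate number. Unscaled deviations from the group mean correlated at 0.104, -0.121 and -0.0809 between libraries of the same number. With 3 libraries per group these values cannot decide whether the libraries are paired. Signs turned for 3 members that were not called in the fit reported. Il17ra was at 0.0063 with GC and length correction, with or without the replicate block. Il17re was at 0.0440 scaled and 0.17 corrected, with or without the block, and between -0.376 and 0.068 (scaled -0.12 to 0.256) without each library. Nfkbiz was at 0.18 scaled and 0.26 corrected, with or without the block, at 0.0622 with the common sum less small RNA features, and between -0.227 and 0.269 over both scales (0.0771 to 0.269 scaled) without each library. Members without overlap went from 4 to 2 after scaling. Without each library the log2 ratio difference of Il17rc to Traf3ip2 ran from -1.04 to 0.0356, that to Il17ra from -1.67 to -0.64, and those to Il17rd, Il17re and Traf6 stayed negative, from -1.596 to -0.997. The causes were not tested. The scaled fits without each library, and the ratio to Creld1, were chosen after seeing the data.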
